A study of Homo sapiens with 2 samples.

Results

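IGF2BP3 binds mRNA and is described by the study as a reader of N6-methyladenosine (m6A), a methyl mark on mRNA. Its binding sites were mapped by LACE-seq in OE-19, an established human cell line that came from a tumour where the oesophagus meets the stomach. The assay fixes RNA to bound protein with UV light, pulls the complex down with an antibody, trims the RNA with a nuclease and copies the cDNA ends linearly for sequencing. Both replicates of the single group have their own peak list, with 21142 peaks in replicate 1 and 20799 in replicate 2. The labels give no treatment or genetic change and do not say whether the replicates were separate cultures. No input library was analysed here, so the values are descriptions and no test between conditions was possible.

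The genes described are 10 receptor tyrosine kinases other than ERBB2, namely EGFR, ERBB3, MET, MST1R, FGFR2, FGFR3, FGFR4, EPHA2, EPHB4 and DDR1. A peak was counted when it shared at least 1 bp with an exon of one of these genes in GENCODE 44, on the hg38 build. This gave 29 of the 21142 peaks in replicate 1 and 37 of the 20799 in replicate 2.

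Receptor tyrosine kinases have an extracellular part that binds a ligand, a segment through the membrane and a cytoplasmic kinase domain. Ligand binding brings receptors together, the kinase domains phosphorylate tyrosines of the partner, and adaptors dock there and pass the signal to RAS and PI3 kinase. In epithelia they carry signals for growth, migration and cell contact, and several are drug targets in carcinoma. IGF2BP3 and its relatives are known for binding mRNA, often in the 3′ UTR and near stop codons, and for affecting its stability and translation.

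A peak shows where RNA was recovered with IGF2BP3. In the whole lists no peak was narrower than 293 bp (replicate 1) or 294 bp (replicate 2). A codon under a peak thus need not have been bound itself. A peak does not measure the level of the mRNA, which was not analysed here. All 5 epithelial marker genes had peaks that overlapped between the replicates, and 0 of 4 markers of other cell types had a peak in either list. The peaks had no strand, so each was read on the strand of its gene.

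Several stretches under peaks found in both replicates are shown as chosen examples for the descriptions below. They do not stand for all receptor peaks, whose share of summits with GGAC was near the background. Each of the first 7 is the coding part of 1 exon that both peaks covered, written 5′ to 3′ on the strand of the gene. Capitals in the first 4 mark GGAC, a common core of the m6A consensus, with the T before it where there is one. They lie at chr7:55181293-55181424 in EGFR (plus strand), chr7:116795887-116796124 in MET (plus strand), and chr7:100823681-100823931 and chr7:100822534-100822667 in EPHB4 (minus strand).
EGFR exon 20: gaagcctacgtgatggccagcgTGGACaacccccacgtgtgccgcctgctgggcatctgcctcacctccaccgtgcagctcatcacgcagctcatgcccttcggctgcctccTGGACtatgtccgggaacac
MET exon 21: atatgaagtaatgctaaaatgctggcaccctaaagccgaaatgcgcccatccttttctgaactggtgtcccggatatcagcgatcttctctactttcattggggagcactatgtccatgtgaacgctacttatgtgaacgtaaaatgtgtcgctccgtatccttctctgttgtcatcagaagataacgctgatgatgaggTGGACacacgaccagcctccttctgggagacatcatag
EPHB4 exon 3: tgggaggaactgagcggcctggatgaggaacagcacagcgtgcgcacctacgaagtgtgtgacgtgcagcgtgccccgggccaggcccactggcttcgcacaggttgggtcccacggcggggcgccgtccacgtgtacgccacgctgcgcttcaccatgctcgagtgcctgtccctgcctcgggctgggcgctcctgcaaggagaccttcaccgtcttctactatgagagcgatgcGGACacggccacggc
EPHB4 exon 4: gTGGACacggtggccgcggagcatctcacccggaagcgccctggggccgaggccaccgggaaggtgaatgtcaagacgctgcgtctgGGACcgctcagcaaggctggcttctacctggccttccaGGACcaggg

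Capitals in the next 3 mark only a landmark of the receptor. They are the codons of the membrane segment in EGFR exon 17 (chr7:55172983-55173117, plus strand), the codons of the HRD motif of the catalytic loop in EGFR exon 21 (chr7:55191719-55191786, plus strand), and the stop codon in EPHA2 exon 17 (chr1:16125215-16125320, minus strand).
EGFR exon 17: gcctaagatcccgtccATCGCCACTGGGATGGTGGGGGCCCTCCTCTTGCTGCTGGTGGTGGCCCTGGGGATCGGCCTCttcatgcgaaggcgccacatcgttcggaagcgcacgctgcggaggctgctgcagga
EGFR exon 21: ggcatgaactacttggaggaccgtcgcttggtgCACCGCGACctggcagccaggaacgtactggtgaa
EPHA2 exon 17: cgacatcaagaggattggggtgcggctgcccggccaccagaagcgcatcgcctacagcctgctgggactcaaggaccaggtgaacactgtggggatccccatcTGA

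The last 2 come from the 3′ UTR of FGFR2, where each replicate had another TGGAC, in capitals, as the nearest to its summit. It lay 31 nt from the summit in replicate 1 (chr10:121479127-121479147, minus strand) and 42 nt in replicate 2 (chr10:121478912-121478932, minus strand).
FGFR2 replicate 1: ctattgctTGGACttaactag
FGFR2 replicate 2: cgtctaacTGGACttcccaag

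IGF2BP3 peaks lay on 8 of the 10 receptor genes in replicate 1 and on all 10 in replicate 2. The same 8 genes, EGFR, ERBB3, MET, MST1R, FGFR2, EPHA2, EPHB4 and DDR1, had at least 1 pair of peaks that overlapped between the replicates, or 80% of the receptors. Over all 20046 protein-coding genes, 28.0% had such a pair. The 10 genes were chosen with earlier results of these data known. Their exons were also longer, with a median of 6830.5 bp against 4416 bp over all protein-coding genes. The 2 shares are therefore a description and not a test. In all, 24 of the 29 receptor peaks of replicate 1 overlapped a peak of replicate 2 (82.8%, against 60.1% of all peaks of replicate 1). In the other direction, 24 of the 37 peaks of replicate 2 overlapped one of replicate 1 (64.9%, against 61.2% of all peaks of replicate 2), so the share was close to that of the whole list there.

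**Figure D1:**
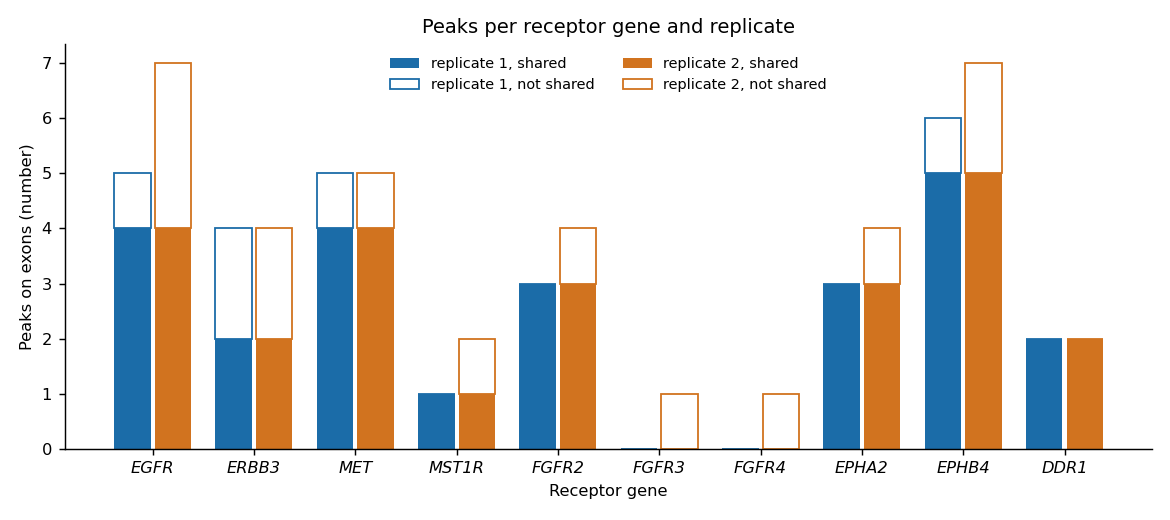
Number of peaks on the exons of each receptor gene (bars, y axis) in replicate 1 (blue) and replicate 2 (orange), filled where the peak overlapped one of the other replicate and open where it did not. EPHB4 had 6 and 7 peaks, and FGFR3 and FGFR4 had 0 in replicate 1 and 1 in replicate 2.

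EPHB4, a receptor for ephrin-B ligands, had the largest number of pairs, 5, a number that 2.11% of protein-coding genes reached. EGFR and MET had 4 pairs each (3.8% of genes had at least as many). FGFR2 and EPHA2 had 3 pairs (7.12%), ERBB3 and DDR1 had 2 (13.6%), and MST1R had 1. These shares of genes were not matched for mRNA level or length, and the exons of the 10 genes ranged from 4141 bp in EPHA2 to 18813 bp in FGFR2.

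Relative to exon length the order was another. Peaks covered 34.8% of the exon bases of EPHA2 in replicate 1 and 45.3% in replicate 2. EPHB4 followed with 21% and 26.4%, and MET with 20.8% and 14.6%. Coverage was 6.27% and 9.63% for EGFR and 5.50% and 6.95% for FGFR2, the pair of genes with the longest exon unions. These unions take in the exons of all annotated transcripts. For FGFR2 the union is 18813 bp but the main transcript 4624 nt, against 4141 bp and 3946 nt for EPHA2. The order of genes thus holds for the union only and was not worked out on the main transcripts. Over the 10 genes together, coverage was 10.6% and 12.5% of the union, and 17.4% and 20.6% with 1 transcript per gene.

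**Figure D2:**
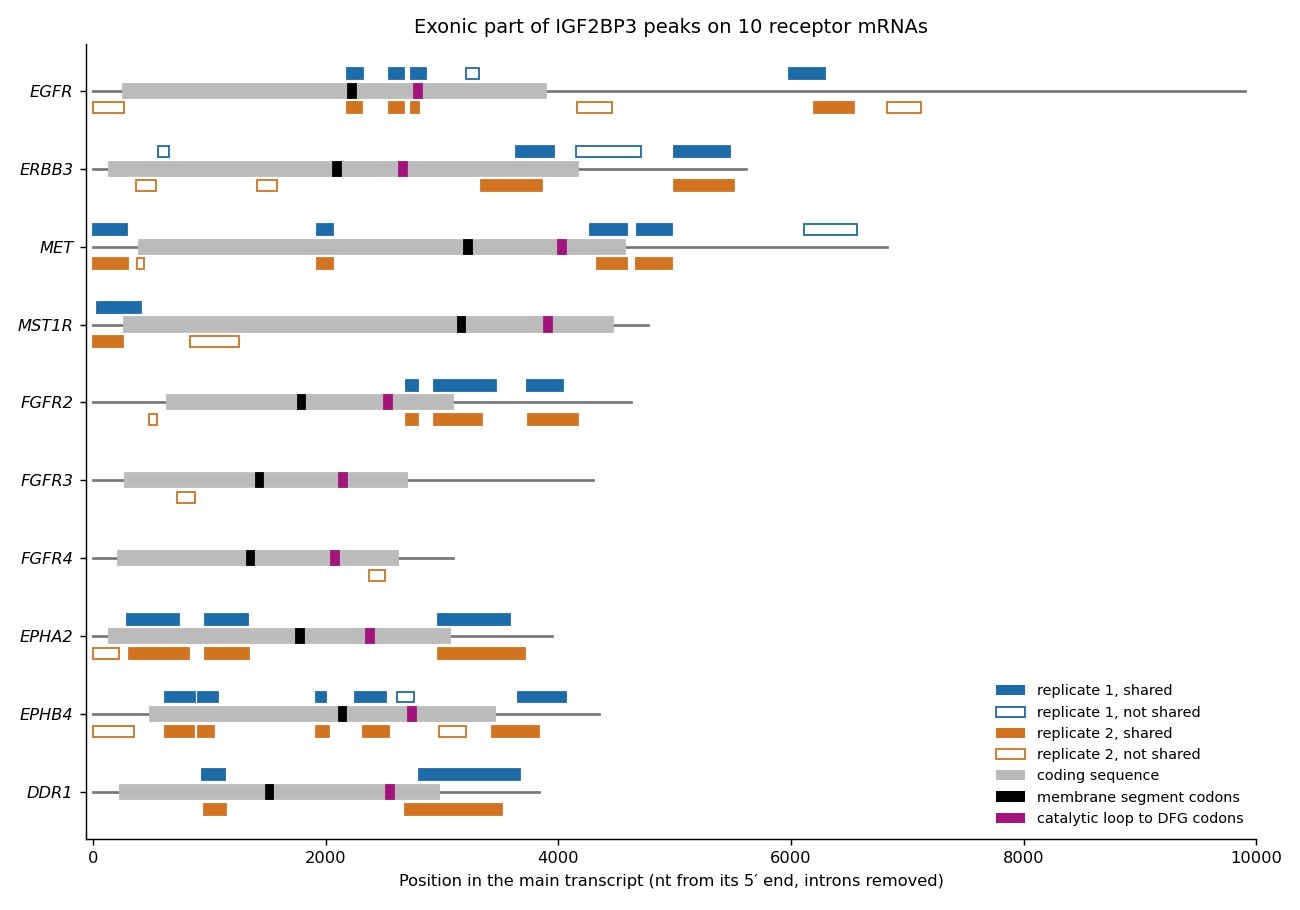
Exonic part of each peak along the main transcript of the 10 receptor genes (x axis, nt from the 5′ end with introns removed), with replicate 1 above the line and replicate 2 below it, and filled boxes for peaks shared between replicates. Grey marks the coding sequence, black the membrane segment and purple the codons from the catalytic loop to DFG. Shared peaks stand over the membrane segment in EGFR alone, and shared peaks of both replicates stand over the stop codon in MET, FGFR2, EPHA2 and DDR1, with that of replicate 2 alone over the stop codon of EPHB4.

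The depth behind a peak is given as its pileup, the number of reads at the summit, worked out from the fold and p-value in the files. The fold is the peak caller's ratio of summit reads to the local background, with 1 added to both. Where the background is under 1 read, the fold is thus far below the plain ratio. At the receptor peaks the pileup ran from 7 to 123 reads in replicate 1 and from 7 to 135 in replicate 2. The medians were 26 and 24, against 22 in both whole lists and 24 and 23 over all peaks on protein-coding exons. The median fold of the receptor peaks was 6.16 in replicate 1 and 6.42 in replicate 2, against 6.84 and 7.13 over all peaks on protein-coding exons. The median receptor peak thus stood at the 35.4th percentile of fold in each list, yet at the 57.9th and 55.0th percentile of pileup. By −log10 q, which combines both, it stood at the 43.8th and 48.3rd percentile.

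**Figure D3:**
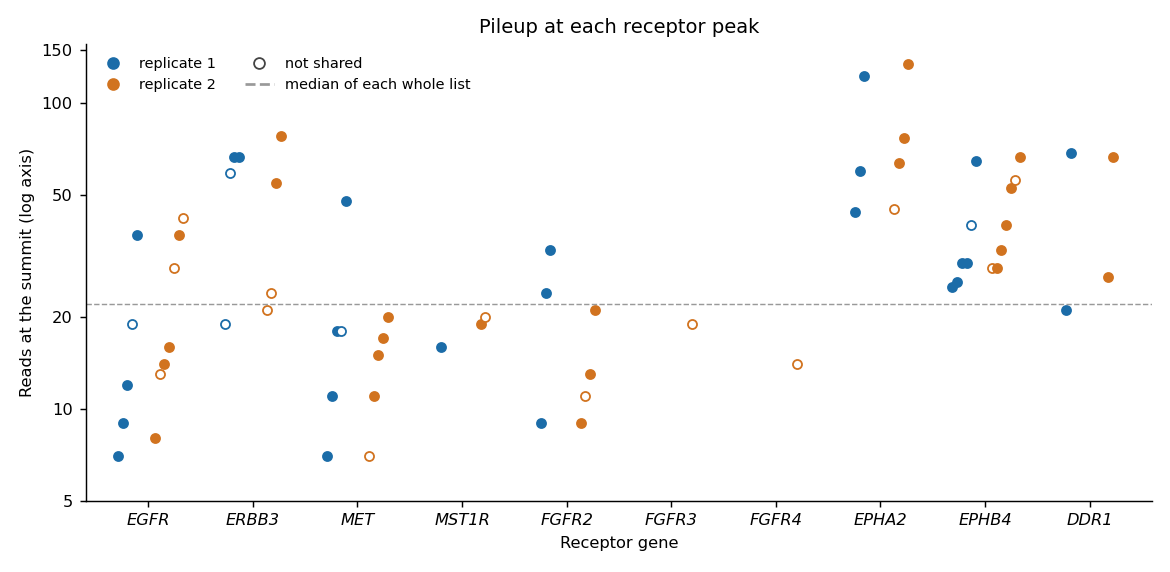
Reads at the summit of each receptor peak (y axis, log scale) by gene, in replicate 1 (blue) and replicate 2 (orange), with open points for peaks not shared and a dashed line at the median of each whole list, 22 reads. All EPHA2 and EPHB4 peaks lie above the line, and 1 EPHA2 peak per replicate reaches over 100 reads.

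Among the receptors of the EGF family, EGFR binds EGF and TGF-alpha. It had 5 peaks in replicate 1 and 7 in replicate 2. Of its 4 pairs, 3 lay in a row over exons that encode the membrane segment and the kinase domain. Their pileups were low, at 7 to 16 reads, over a background under 1 read.

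The pair over EGFR exon 17 (chr7:55172809-55173118 in replicate 1 and chr7:55172769-55173117 in replicate 2) had 9 and 16 reads at the summit and folds of 7.24 and 9.63, a mean of 8.44 ± 1.69 (SD, n = 2). Both summits were intronic, 33 and 54 nt upstream of the exon, and 43.9% and 38.7% of the bases were exonic. The exonic part covered the codons of residues 640 to 685. With them it covered the whole hydrophobic stretch, residues 646 to 666, shown in capitals above. No other receptor of the 10 had a peak over its membrane segment in either replicate, but ERBB2 had a pair there, described below.

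The pair over EGFR exon 20 had 7 and 14 reads and folds of 5.96 and 8.50. Its summit was intronic in replicate 1 and coding in replicate 2, and 40.9% and 37.8% of its bases were exonic. The pair covered residues 762 to 805, in the first lobe of the kinase domain and the hinge after it. It held TGGAC within 50 nt of both summits. EGFR-AS1, an antisense RNA, also has an exon there, so these reads cannot be given to one of the genes. The pair over exon 21 had 12 and 8 reads and folds of 8.68 and 6.80, with summits 12 bp apart. In replicate 1 it covered residues 824 to 867, with the codons of both HRD in the catalytic loop and DFG in the activation segment. In replicate 2 it covered residues 824 to 846 and the HRD codons only. Of the 10 receptors, EGFR was the 1 with kinase motif codons under peaks of both replicates, and EPHB4 had them in replicate 1 only. ERBB2, which is not among the 10, also had them in both.

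The last EGFR pair lay far into the 3′ UTR, 2130 and 2370 nt past the stop codon of a 6011-nt 3′ UTR. It had 37 reads in each replicate, more than any of the 3 other pairs, but folds of only 3.62 and 3.88 over backgrounds of 9.49 and 8.79 reads. The peaks shared 97 bp, the shortest overlap of the 24 pairs. Replicate 2 had 2 further 3′ UTR peaks, with 42 and 29 reads, and 1 peak at the 5′ end with 13 reads, while replicate 1 had 1 further peak at exon 25 with 19 reads.

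ERBB3 has a kinase domain with little activity, in which HRD is replaced by HRN, and signals mainly through its long tail, which binds PI3 kinase. It had 4 peaks in each replicate, of which 2 formed pairs. The pair in the last coding exons (chr12:56101377-56101849 and chr12:56100955-56101747) had 67 and 78 reads and folds of 5.84 and 7.53. It lay over codons of the tail, residues 1168 to 1275 in replicate 1 and 1068 to 1241 in replicate 2. The peak of replicate 2 also touched an exon of the gene ENSG00000257411.

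The ERBB3 pair in the 3′ UTR had 67 and 55 reads and folds of 6.14 and 5.62, and its summits lay 3 bp apart, 1107 and 1104 nt past the stop codon. One more peak, over the stop codon, with 59 reads, was found in replicate 1 only. The other unshared ERBB3 peaks, 1 in replicate 1 and 2 in replicate 2, lay on extracellular exons with 19 to 24 reads.

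ERBB2, the partner of both, had 10 peaks in each replicate and 9 pairs. Its lowest pileups, 72 reads in replicate 1 and 98 in replicate 2, were at peaks that also touched an exon of PGAP3, and 1 peak of replicate 2 also touched MIEN1. Among the 10 receptors only the EPHA2 peak at the stop codon had as many reads. The ERBB2 pair with the highest pileup covered the codons of the membrane segment, with folds of 4.28 and 4.58, and another covered the HRD codons, with folds of 2.16 and 1.79.

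MET, the receptor for hepatocyte growth factor, had 5 peaks in each replicate and 4 pairs, from the 5′ end to the 3′ UTR. The pair at the 5′ end (chr7:116671909-116672491 and chr7:116671936-116672493) had 7 and 17 reads and folds of 5.79 and 10.6. The ratio of these folds, 1.82, was the largest of the 24 pairs. The peaks began 287 and 260 bp before the annotated transcript start. Of the 10 receptors, MET was the 1 with its transcript start under a peak in both replicates, and ERBB2 had its start covered in both as well.

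The MET pair at exon 5, which encodes extracellular residues 510 to 557, had 11 reads in each replicate and folds of 8.34 and 8.33. Both its summits were intronic, and 45.7% and 46.8% of its bases were exonic. The pair at the end of the coding sequence (chr7:116795732-116796141 and chr7:116795823-116796144) had 48 and 20 reads and folds of 10.2 and 7.76, a mean of 8.98 ± 1.72 (SD, n = 2). It covered the stop codon and the codons from residue 1292 in replicate 1 and from residue 1312 in replicate 2, which encode the end of the kinase domain and the tail with the docking site for adaptors. Its TGGAC, shown above, lay within 50 nt of the summit in replicate 2 but not in replicate 1. The summits of the pair were 155 bp apart. A pair in the 3′ UTR just after it had 18 and 15 reads and folds of 3.95 and 5.91.

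MST1R, also called RON and the receptor for macrophage-stimulating protein, is the close relative of MET. It had 1 pair, in exon 1, with 16 and 19 reads and folds of 4.33 and 4.76. The summits were 154 bp apart and both lay in the 5′ UTR. Both peaks also covered an exon of ENSG00000230698, and that of replicate 2 one of ENSG00000228008. With all peaks over an exon of another gene left out, 7 receptor genes had a pair in place of 8. A further peak on exon 1 in replicate 2 had 20 reads and covered residues 191 to 332.

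The fibroblast growth factor receptors differed among themselves in number of peaks. FGFR2, the receptor for FGF7 and FGF10 in epithelia in one of its splice forms, had 3 peaks in replicate 1 and 4 in replicate 2, with 3 pairs, all toward the 3′ end. FGFR3 and FGFR4 had 0 peaks in replicate 1 and 1 each in replicate 2, so neither had a pair. Whether the genes differ beyond the spread between replicates cannot be tested with 2 lists.

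The FGFR2 pair farther along the 3′ UTR (chr10:121478917-121479222 and chr10:121478790-121479214) was the strongest of the gene, with 33 and 21 reads and folds of 9.50 and 8.91, a mean of 9.20 ± 0.42 (SD, n = 2). The summits were 204 bp apart, and each had its own TGGAC within 50 nt, as printed above. The pair over the stop codon had 24 and 13 reads and folds of 6.99 and 5.67. The pair at exon 16, over residues 686 to 722 after the DFG motif, had 9 reads in each replicate and folds of 6.31 and 6.42. Its summits were 4 bp apart and intronic, and 36.5% and 36.1% of its bases were exonic. The peak found in replicate 2 only lay in the 5′ UTR, with 11 reads.

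The FGFR3 peak lay on exon 5 (chr4:1801232-1801525), over extracellular residues 149 to 202, with 19 reads and a fold of 5.97. The FGFR4 peak lay on exons 17 and 18 (chr5:177097265-177097558), over residues 718 to 764 at the end of the kinase domain, with 14 reads, a fold of 6.15 and a TGGAC in its window. Both pileups were below the median of the list, 22 reads. Whether replicate 1 held fewer reads at these sites cannot be read from a peak list.

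EPHA2, a receptor for ephrin-A ligands, held the strongest receptor pair. It lay over the last coding exon, the stop codon and most of the 3′ UTR (chr1:16124701-16125379 and chr1:16124570-16125531). The summits had 123 and 135 reads, and the whole lists reached 75 and 77 at their 95th percentile. The folds were 10.4 in both replicates, the −log10 q values were 78.1 and 85.3, and the summits lay 2 bp apart, 143 and 141 nt past the stop codon. The peaks covered codons 942 to 976, printed above, and 514 and 645 bases of the 878-nt 3′ UTR. Neither summit window held GGAC, although the coding part has 2.

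EPHA2 also had a pair on exon 3, which encodes part of the ligand-binding domain, with 60 and 77 reads and folds of 6.76 and 6.58. Its summits were 257 bp apart within a shared 429 bp. A pair over exons 4 and 5 had 44 and 64 reads and folds of 4.17 and 5.08, with intronic summits 14 and 46 nt from the nearest exon. At the 5′ end, replicate 2 alone had a peak, with 45 reads.

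EPHB4 had pairs spread over its coding exons and another in the 3′ UTR. Those on exons 3 and 4 encode the ligand-binding domain (residues 42 to 127 and 138 to 193 in replicate 1). The exon 3 pair had 65 and 67 reads and folds of 8.59 and 6.44, a mean of 7.52 ± 1.52 (SD, n = 2), and the exon 4 pair had 30 and 53 reads and folds of 4.18 and 5.10. Both had summits 15 bp apart. Both windows of the exon 4 pair held TGGAC, and those of the exon 3 pair held no GGAC.

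Further along EPHB4, a pair at exon 8 had 30 and 33 reads. Its summits were intronic, 113 and 107 nt from the exon, and 29.4% and 37.1% of its bases were exonic. A pair on exons 11 and 12, between the membrane segment and the catalytic loop, had 25 and 29 reads, with an intronic summit in replicate 1. The pair in the 3′ UTR had 26 and 40 reads with summits 209 bp apart, and only the peak of replicate 2 reached the stop codon. Of the 3 unshared EPHB4 peaks, those at exon 13 (replicate 1) and at exons 15 and 16 (replicate 2) lay mostly in introns, with 42.9% and 36.9% of their bases in exons that encode the kinase domain. The last, with 56 reads, lay at the 5′ end in replicate 2.

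DDR1, a receptor for collagen, had 2 peaks in each replicate and both were pairs. The pair at the stop codon (chr6:30899004-30899988 and chr6:30898702-30899832) was the widest of all, at 985 and 1131 bp. It had 69 and 67 reads and folds of 6.92 and 7.56, but its summits lay 304 bp apart, in the coding sequence in replicate 1 and in the 3′ UTR in replicate 2. The pair on exons 7 and 8, over extracellular residues, had 21 and 27 reads and folds of 4.15 and 4.07.

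**Figure D4:**
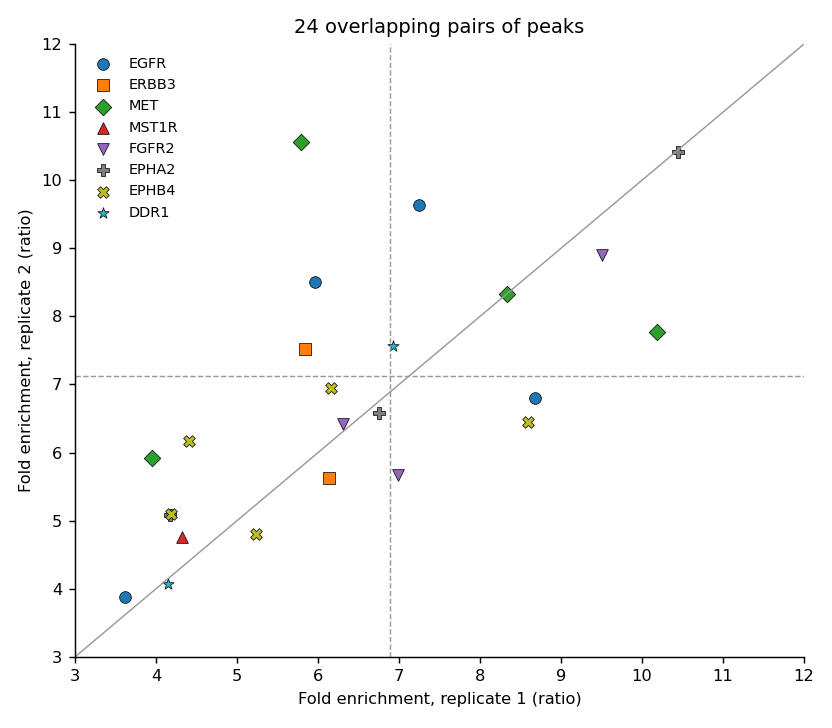
Fold enrichment of the 24 overlapping pairs of receptor peaks in replicate 1 (x axis) and replicate 2 (y axis), with the diagonal of equal folds and dashed lines at the median fold of each whole list. The EPHA2 pair at the stop codon is at the top right, and the MET pair at the 5′ end lies farthest above the diagonal. An EPHA2 and an EPHB4 pair lie on top of each other near 4.2 and 5.1.

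Over the 24 pairs the fold was higher in replicate 1 in 11 and in replicate 2 in 13. These folds are as deposited, with no correction for the depth of each library, and the same holds for each mean ± SD above. The larger fold was a median of 1.17 times the smaller. Across pairs Pearson's r was 0.66 and Spearman's rho 0.69 (n = 24 pairs from 8 genes, all of them peaks that passed the caller in both lists), which describes these pairs and not independent samples. The summits were a median of 43 bp apart, from 2 to 304 bp, and 12 pairs had them within 50 bp. In 21 pairs the overlap made up at least 50% of both peaks.

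By region, 7 of the 29 receptor summits of replicate 1 lay in coding sequence (24.1%), 9 in the 3′ UTR (31%), 1 in the 5′ UTR (3.45%) and 10 in introns (34.5%). In replicate 2, 11 of 37 lay in coding sequence (29.7%), 10 in the 3′ UTR (27%), 6 in the 5′ UTR (16.2%) and 10 in introns (27%). Over all protein-coding genes the shares in coding sequence were 34.2% and 34.1%, and those in the 3′ UTR were 26.3% and 20.8%. The shares in the 5′ UTR were 7.89% and 13.7%, and those in introns 24.9% and 22.4%. With 29 and 37 peaks, a shift of a few peaks would close these gaps.

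**Figure D5:**
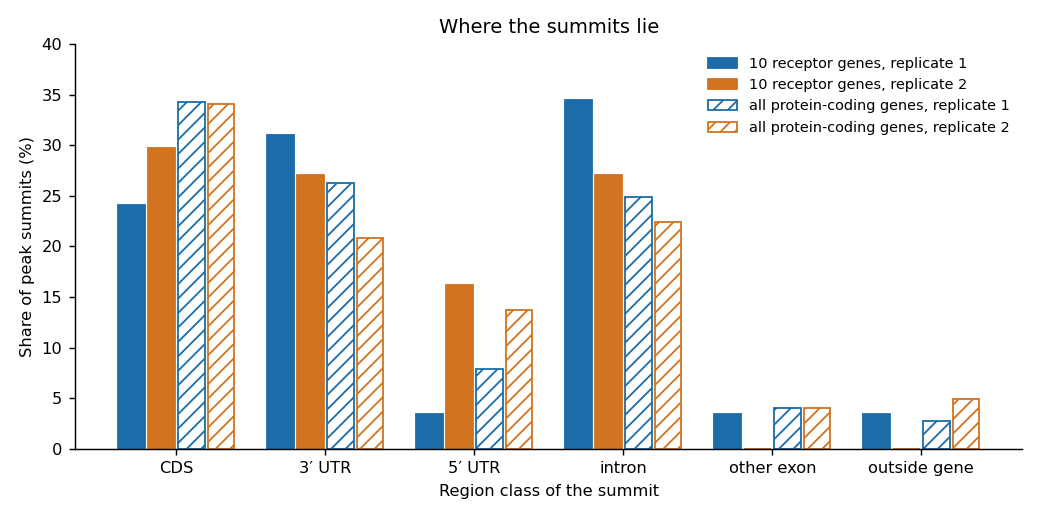
Share of peak summits (y axis, %) by region class for the 10 receptor genes (filled bars) and all protein-coding genes (hatched bars), in replicate 1 (blue) and replicate 2 (orange). The receptor share in coding sequence is below, and that in introns above, the share over all genes in both replicates, and the 5′ UTR share is higher in replicate 2 than in replicate 1 in both sets.

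The intronic summits belonged to peaks that reached into an exon. All 10 of replicate 1 and all 10 of replicate 2 lay upstream of the nearest exon, at 9 to 125 nt (median 36) and 13 to 107 nt (median 48). The exonic part of these peaks made up a median of 41.9% and 37.9% of their length. When each peak was instead classed by where most of its bases lay, the mean share in coding sequence rose from 26.9% to 33.1%. The side of intronic summits over all protein-coding genes was not counted, so this cannot be read as particular to the receptors. Why the summits lay on this side was not tested.

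Stop codons were under peaks of both replicates in 4 genes, MET, FGFR2, EPHA2 and DDR1. ERBB3 had its stop codon covered in replicate 1 only and EPHB4 in replicate 2 only. By share of peaks, 6 of 29 (20.7%) and 6 of 37 (16.2%) covered an annotated stop codon, against 18.9% and 17% over all protein-coding genes, so the receptors were near the background here.

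Peaks at the 5′ end differed between the replicates. The transcript start was under a peak in 5 genes in replicate 2 (EGFR, MET, EPHA2, EPHB4 and MST1R) and in MET alone in replicate 1. The same held for all protein-coding genes, with 2601 such peaks in replicate 2 and 1236 in replicate 1. GC content moved with position. In replicate 2 the windows of 50 nt to each side of the summit had a median GC content of 75.2% for the 6 first-exon peaks and 53.5% for the others. Its part in the difference between replicates was not tested.

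GGAC stood within 50 nt of 8 of 29 summits in replicate 1 (27.6%) and 12 of 37 in replicate 2 (32.4%), on the gene strand. Over all protein-coding genes the shares were 29.5% and 32.5%, so the receptor summits were at the background. TGGAC, which contains GGAC, stood in 4 (13.8%) and 5 (13.5%) windows, against 10.1% and 10.0%. On either strand the shares for GGAC were 65.5% and 56.8%, against 49.9% and 55.9%. A motif match is a letter match and was not tied here to m6A, which these files do not measure.

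Of 48 further receptor tyrosine kinases, 11 had a pair (22.9%, against 28.0% of all protein-coding genes). Beside ERBB2 these were INSR with 7 pairs, IGF1R with 6, LMTK2 with 5, EPHB2 with 3, RYK and EPHA4 with 2 each, and LMTK3, EPHA1, ERBB4 and AATK with 1 each. The EPHA1 peaks also covered exons of ZYX. INSR and IGF1R, the receptors for insulin and IGF1, had summits of up to 49 and 65 reads in replicate 1 and 54 and 71 in replicate 2. EPHA10 and EPHB3 had a peak in replicate 2 only, and the other 35 genes had no peak.

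Of 30 genes for ligands of the 10 receptors, counting 1 coreceptor, 7 had a pair (23.3%, against 28.0% of all protein-coding genes). TGFA, a ligand of EGFR, had 4 pairs. EFNB2 and EFNB1, which encode ephrin-B ligands, had 3 each, with up to 154 and 84 reads in replicate 1 and 156 and 89 in replicate 2. At least 1 EFNB2 peak in each replicate also touched an exon of ENSG00000284966. FGF19, a ligand of FGFR4, had 2, and EFNA2 had 1. No peak in either list lay on 20 of the genes, among them EGF, HGF and MST1, ligands of EGFR, MET and MST1R that were picked here after their values were seen.

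Of 30 adaptors, effectors and negative regulators that act below the receptors, 23 had a pair (76.7%, against 28.0% of all protein-coding genes). The docking protein GAB2 had 6 pairs, with folds of up to 14.9 in replicate 1 and 17.2 in replicate 2. CBLB, a ubiquitin ligase that takes receptors down, had 5. SPRED2, an inhibitor of the RAS pathway, GRB2, the adaptor that recruits SOS, and SOS1, the exchange factor for RAS, had 4 each. FRS2, the docking protein of the FGF receptors, was the 1 gene of the list with no peak, and is named for that. The lists were chosen by function, but with earlier results of these data known and with no matching for mRNA level. These shares are thus not a comparison between the lists, nor a test of a list against all genes.

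No exact repeat was found at these summits. The 31 bases around each of the 29 and 37 summits occurred only there in the genome, with alternative loci and patches left out. Near matches and the rest of each peak were not searched. An exon of another gene lay under 2 of the 29 peaks in replicate 1 and 3 of the 37 in replicate 2, on EGFR, ERBB3 and MST1R, as given above.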

How the data were processed

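IGF2BP3 LACE-seq of OE-19 cells was analysed from 2 replicates of a single group, and neither was left out. The submitters' processing notes name fastp, HISAT2, MACS2 and hg38, whereas the study's methods name Bowtie and Piranha. The deposited files have the MACS narrowPeak layout, called per replicate. The deposited start, end and summit are positions, and the fold is a ratio over the local background as the authors gave it. The authors' p-value and q-value were deposited as −log10, and the score column follows the deposited q-value and was left out. Read totals are unknown. A pileup was recovered for every peak as the whole number that gives both fold and p-value under a Poisson distribution, to within 0.001 in −log10 p.

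Exons, codons and strands came from GENCODE 44 and sequences from hg38. Over the transcripts of a gene, coding bases came before 3′ UTR, 5′ UTR, other exons and introns in naming the region of a summit. The main transcript is the MANE Select transcript. The membrane segment is the 21-residue window of highest hydropathy, and the kinase motifs were read from the translated transcript, since no RefSeq protein table was used here. Peaks overlapped from 1 shared bp. Each receptor was named whatever its values, with the receptors of the family list that had a pair and the 5 genes of each further list with the most pairs. The receptors and lists were chosen with earlier results of these data known. Counting was tested on simulated data. Python 3.11.15, pandas 2.3.3 and pysam 0.24.0 were used.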

Additional observations from a re-analysis of the deposited data

How the results depend on the processing

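Values here are means of the replicates, or counts over both. Of 79 alternatives over 13 results, 57 stayed within the spread between replicates or within 1.5 times the count, and 22 moved. Keeping the 10000 peaks with the largest −log10 q moved 13 results. It left a mean of 14.5 receptor peaks in place of 33, 5 receptor genes with a pair in place of 8, 56.9% of peaks shared in place of 73.8%, 35.5% of summits in coding sequence in place of 26.9%, and 35.5% in the 3′ UTR in place of 29%. The median fold percentile became 52.0 in place of 35.4, the exon bases covered 6.71% in place of 11.5%, and GGAC windows 20.1% in place of 30.01%. Genes with a stop codon under peaks fell to 2 from 4, those with kinase motif codons to 0 from 1, the further receptors with a pair to 6 from 11, ligands to 4 from 7 and signalling genes to 14 from 23. This setting keeps fewer peaks by construction.

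Counting only summits within 50 bp as shared gave 36.9%. Classing peaks by most bases gave 33.1% in coding sequence. With 1 transcript per gene, 19.0% of exon bases were covered. The median percentile was 35.8 with −log10 q of at least 5, 35.6 without peaks over another gene's exon, 46.0 by −log10 q and 56.5 by pileup. With windows of 100 nt to each side, GGAC reached 51.2%, and TGGAC stood in 13.7%. The causes were not tested. Results that need both lists have no value with a replicate left out, and no other result moved then. For shares and percentiles this was fixed in advance, as leaving out 1 of 2 replicates shifts their mean by less than their SD. These alternatives are among the 57 that stayed and show nothing about robustness.

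With 2 lists of 1 group, no input and unknown read totals, a missing peak cannot be told apart from low depth or a low mRNA level.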

Other observations

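Peaks that lay wholly in introns of the receptor genes, with no exon base, were 2, both in replicate 1 and neither shared. The one in EGFR (chr7:55067838-55068242) had 20 reads and a fold of 9.80 and lay 48709 nt from the nearest exon. The one in EPHA2 (chr1:16132667-16132959) had 42 reads and a fold of 3.15 and lay 334 nt from an exon.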
